A study of Homo sapiens with 8 samples.

Results

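The 10 genes described here, IL1B, PLAUR, PDGFRB, CD180, PRICKLE1, KANK2, GNAZ, TRIB1, TFAP4 and GLDC, were selected by their large falls with prednisolone in control leukemia cells. They are 10 of 17881 transcript clusters measured on Affymetrix Human Exon arrays, and each had 1 cluster that carries its symbol alone. The study used 8 arrays of cells labelled RS4;11, a line from an acute lymphoblastic leukemia of B-cell precursors with an MLL fusion, transduced with either a control shRNA vector or an shRNA vector against BTG1. Cells of each kind were kept for 8 h with vehicle or with prednisolone, a synthetic glucocorticoid, and each of the 4 groups holds 2 arrays. The labels give neither the dose of prednisolone nor whether the transduced cells were clones. They also do not say whether the paired arrays within a group derive from separate cultures, so the p-values below reflect only array-to-array spread and that spread may be technical. Since the difference between prednisolone and vehicle on the control arrays chose the genes, it is described and not tested. The test is prednisolone against vehicle on the 4 arrays labelled BTG1 shRNA, which were not used in the choice. Its SE and intervals use a spread estimated from all 8 arrays, the control arrays included.

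Glucocorticoids act through the glucocorticoid receptor NR3C1, a ligand-activated transcription factor that raises many genes by binding DNA directly. It also represses genes, and the best known route is interference with the factors NF-kB and AP-1, which drive cytokine genes such as IL1B. In lymphoid leukemia cells this dual programme precedes growth arrest and apoptosis, which is why prednisolone is a mainstay of treatment. BTG1 is an antiproliferative protein that can act as a cofactor of transcription.

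2 facts about the arrays bear on every comparison. The cluster of BTG1, which it shares with LINC01619, had a lower log2 level under vehicle on the arrays labelled BTG1 shRNA (difference -2.06, SE 0.20, limma adjusted p = 0.000388), and NR3C1 was lower too (-2.53, SE 0.28, adjusted p = 0.000733). The same arrays did not carry the labelled cell type's profile. Averaged over 14 B-lineage markers, the log2 level was 7.78 to 8.35 on the control arrays and 4.27 to 4.54 on the arrays labelled BTG1 shRNA. For 15 T-lineage markers it was 4.21 to 4.86 and 8.14 to 8.36. CD79A, a signalling subunit of the B-cell receptor, stood at 9.89 and 9.99 on the control vehicle arrays and at 4.91 ± 0.01 (SD, n = 2) on the vehicle arrays labelled BTG1 shRNA, whereas CD3D, a subunit of the T-cell receptor complex, stood at 3.42 and 3.32 against 11.47 ± 0.03. The shRNA and this lineage difference cannot be told apart, so the text writes of arrays labelled BTG1 shRNA. To judge whether a gene was lit at all, its level was set against 26 genes of unrelated tissues such as liver and heart. A gene is called dim on an array where it lay at or below the 90th percentile of those genes, which was 4.87 to 5.45.

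Promoter windows are shown for the members in which letters of AP-1 or NF-kB sites were found, because these are the factors that the receptor is best known to oppose. RefSeq windows on build GRCh38.p14, running from 250 bases before to 50 bases after the gene start, were found for 7 of the 10 genes. Capitals mark the matches, and each window is written 5′ to 3′ along the gene's own strand, which is the minus strand for all of these.
PLAUR, chr19:43670120-43670419: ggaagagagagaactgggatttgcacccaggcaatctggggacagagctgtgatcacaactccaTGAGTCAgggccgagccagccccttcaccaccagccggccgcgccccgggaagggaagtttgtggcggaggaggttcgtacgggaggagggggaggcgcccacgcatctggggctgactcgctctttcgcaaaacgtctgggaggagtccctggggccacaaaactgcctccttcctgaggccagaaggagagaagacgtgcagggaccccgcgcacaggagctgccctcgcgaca
CD180, chr5:67196750-67197049: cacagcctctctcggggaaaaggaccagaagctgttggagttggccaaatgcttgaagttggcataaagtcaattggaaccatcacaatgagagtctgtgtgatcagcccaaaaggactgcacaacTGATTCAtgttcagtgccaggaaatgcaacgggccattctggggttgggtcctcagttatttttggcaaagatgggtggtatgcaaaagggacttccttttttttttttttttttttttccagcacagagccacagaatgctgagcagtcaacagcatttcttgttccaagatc
GLDC, chr9:6645680-6645979: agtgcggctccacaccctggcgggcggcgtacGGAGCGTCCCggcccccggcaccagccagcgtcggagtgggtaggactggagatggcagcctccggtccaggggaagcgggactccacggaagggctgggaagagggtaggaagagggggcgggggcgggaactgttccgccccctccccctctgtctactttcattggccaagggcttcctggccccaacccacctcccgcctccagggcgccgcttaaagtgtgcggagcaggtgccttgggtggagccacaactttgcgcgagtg

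The AP-1 motif, searched as TGANTCA on both strands, occurred in 2 of the 7 windows, those of PLAUR (186 bases before the start, listed as -186) and CD180 (-124), against 7.71% of 35116 windows of the same length. The NF-kB consensus, searched on both strands, occurred in 1 of 7, that of GLDC (-218), against 11.3% of all windows. CAGCTG, the E-box form bound by the member TFAP4, was found in 1 window, that of PDGFRB (-102), and in 17.9% of all. The glucocorticoid receptor half-site AGAACA (14.8% of all windows), the inverted-repeat negative element, searched by its consensus (0.72%) and the E-box CACGTG (7.26%) were found in 0 of the 7. No match of one motif overlapped another. These are matches of letters in short windows, not measured binding.

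**Figure D1:**
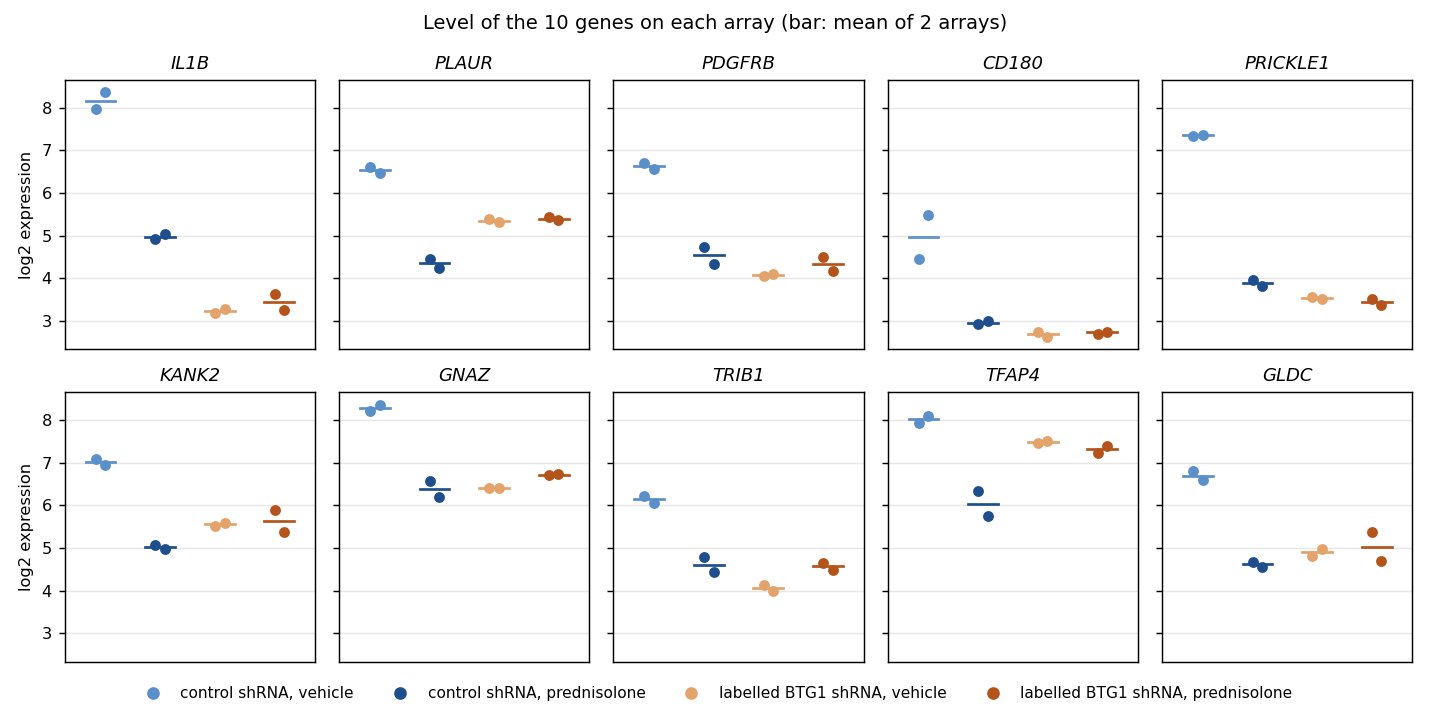
Log2 expression of each of the 10 genes (vertical axis) on each of the 8 arrays, in 10 panels; points are arrays, coloured by group, and horizontal bars are the mean of the 2 arrays of a group. In every panel the control vehicle arrays are the highest pair, and on the arrays labelled BTG1 shRNA the vehicle and prednisolone points lie close together.

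The genes of secreted and surface proteins come first. IL1B, which encodes the inflammatory cytokine interleukin-1 beta, read 7.96 and 8.37 with vehicle and 4.91 and 5.03 with prednisolone on the control arrays. On the arrays labelled BTG1 shRNA it read 3.18 and 3.28 with vehicle and 3.62 and 3.26 with prednisolone. The control pairs did not overlap, and all 4 arrays labelled BTG1 shRNA lay below the control prednisolone arrays, deep in the dim range. The control difference was -3.19 (SE 0.21), while on the arrays labelled BTG1 shRNA it was 0.21 (SE 0.21, 95% confidence interval -0.29 to 0.72).

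PLAUR, the receptor of urokinase plasminogen activator, read 6.61 and 6.48 with vehicle and 4.46 and 4.25 with prednisolone on the control arrays. It read 5.40 and 5.31, then 5.43 and 5.37, on the vehicle and prednisolone arrays labelled BTG1 shRNA. These 4 arrays therefore lay between the control pairs, within 0.24 of the dim threshold. The differences with prednisolone were -2.19 (SE 0.17) on the control arrays and 0.05 (SE 0.17, interval -0.35 to 0.45) on the arrays labelled BTG1 shRNA.

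PDGFRB, a receptor tyrosine kinase for platelet-derived growth factor that is best known from mesenchymal cells, read 6.70 and 6.57, then 4.74 and 4.34, on the control vehicle and prednisolone arrays. It read 4.06 and 4.09 with vehicle and 4.49 and 4.18 with prednisolone on the arrays labelled BTG1 shRNA. The last 2 values overlap those of the control prednisolone arrays, and the gene was dim in all groups but control vehicle. The differences with prednisolone were -2.09 (SE 0.21) and 0.27 (SE 0.21, interval -0.22 to 0.75).

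CD180, a Toll-like receptor relative of B cells and myeloid cells also called RP105, was the least well measured. Its control vehicle arrays read 4.45 and 5.49, and only the second of them was above the dim threshold. The control prednisolone arrays read 2.92 and 3.0, and the arrays labelled BTG1 shRNA lay between 2.62 and 2.75. The control difference of -2.01 (SE 0.31) became -2.53 without the first control vehicle array and -1.49 without the second. On the arrays labelled BTG1 shRNA the difference was 0.04 (SE 0.31, interval -0.69 to 0.77), with all 4 arrays at -2.75 to -2.45 relative to the dim threshold. That SE includes the spread of the control arrays, and it was 0.17 with only the arrays labelled BTG1 shRNA in the fit.

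The next 4 genes encode proteins that work inside the cell, at the cortex or in signalling. PRICKLE1, a cytoplasmic component of the planar cell polarity pathway, had the most negative control difference of all 17881 clusters, at -3.46 (SE 0.16). It read 7.34 and 7.35 with vehicle and 3.95 and 3.82 with prednisolone. With BTG1 shRNA on the label it read 3.55 and 3.52 with vehicle and 3.52 and 3.38 with prednisolone, below both control prednisolone arrays and dim throughout. The difference there was -0.08 (SE 0.16, interval -0.47 to 0.30).

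KANK2, a scaffold protein that links focal adhesions and the cell cortex, read 7.08 and 6.95, then 5.06 and 4.98, on the control arrays. The arrays labelled BTG1 shRNA read 5.52 and 5.59 with vehicle and 5.90 and 5.37 with prednisolone, all between the control pairs. The differences were -2.0 (SE 0.21) and 0.08 (SE 0.21, interval -0.42 to 0.57).

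GNAZ, the alpha subunit of the inhibitory G protein Gz, was bright enough to be above the dim threshold on all 8 arrays. It read 8.22 and 8.36 with vehicle and 6.56 and 6.19 with prednisolone on the control arrays, a difference of -1.91 (SE 0.19, 3.77-fold lower). On the arrays labelled BTG1 shRNA it read 6.40 and 6.41 with vehicle, inside the range of the control prednisolone arrays, and 6.71 and 6.74 with prednisolone, just above that range. The difference there was 0.31 (SE 0.19, interval -0.13 to 0.76).

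TRIB1, a Tribbles pseudokinase that brings C/EBP factors to the ubiquitin ligase COP1, had the smallest control difference of the 10, at -1.53 (SE 0.19). It read 6.21 and 6.06, then 4.78 and 4.44, on the control arrays. The arrays labelled BTG1 shRNA read 4.13 and 3.99 with vehicle and 4.65 and 4.48 with prednisolone, so that both prednisolone arrays were the higher pair and overlapped the control prednisolone arrays. That difference of 0.50 (SE 0.19, interval 0.05 to 0.95) had an unadjusted limma p of 0.0337 and an adjusted p of 1, and it lay wholly in the dim range.

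The last 2 genes encode a transcription factor and an enzyme. TFAP4, a basic helix-loop-helix factor that binds E-boxes and is a known target of MYC, read 7.94 and 8.10 with vehicle and 6.33 and 5.74 with prednisolone on the control arrays, a difference of -1.98 (SE 0.23, 3.95-fold lower). It was the member with the highest level on the arrays labelled BTG1 shRNA relative to the control arrays, reading 7.46 and 7.51 with vehicle and 7.23 and 7.40 with prednisolone. It was above the dim threshold on all 8 arrays. The difference on the arrays labelled BTG1 shRNA was -0.17 (SE 0.23, interval -0.70 to 0.36). GLDC, the glycine decarboxylase of the mitochondrial glycine cleavage system, read 6.80 and 6.59, then 4.68 and 4.56, on the control arrays. It read 4.81 and 4.98 with vehicle and 5.38 and 4.69 with prednisolone on the arrays labelled BTG1 shRNA, where the 2 prednisolone arrays enclosed the vehicle pair. The differences were -2.07 (SE 0.25) and 0.14 (SE 0.25, interval -0.45 to 0.72).

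**Figure D2:**
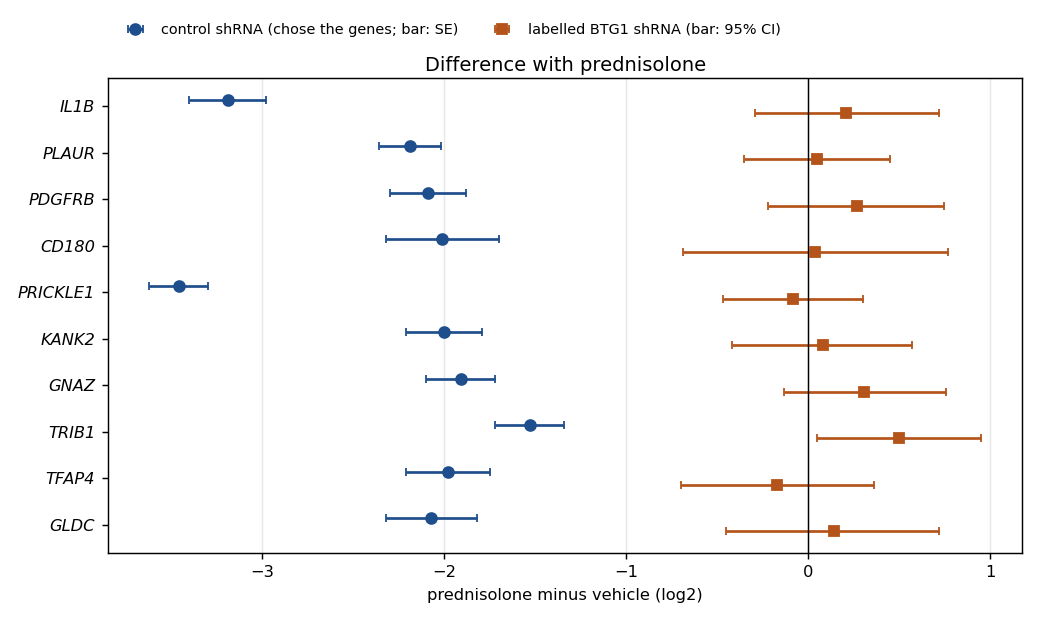
Prednisolone minus vehicle on the log2 scale (horizontal axis) for each of the 10 genes, as the mean difference of 2 against 2 arrays; blue circles are the control arrays, which chose the genes, with bars of 1 SE, and brown squares are the arrays labelled BTG1 shRNA with 95% confidence intervals. The blue points run from -3.46 to -1.53 and the brown points from -0.17 to 0.50.

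None of the 10 genes (0 of 10) passed limma's test on the arrays labelled BTG1 shRNA (adjusted p = 1 for each), beside 0% of all clusters. At an unadjusted p below 0.05 there was 1 member, TRIB1, and 186 of 17881 clusters (1.04%). With only the arrays labelled BTG1 shRNA in the fit, the unadjusted count over all clusters was 470 and the adjusted count was still 0. The differences of the 10 had a median of 0.11, against 0.03 over all clusters, and 8 of them were positive. The 34 clusters of unrelated-tissue genes had a median of 0.16 on the same arrays, with 30 positive. When the first of the prednisolone arrays labelled BTG1 shRNA was left out, the median of the 10 genes was 0.02, with 6 positive, and that of the unrelated-tissue clusters was 0.06, with 21 positive. Over the 10 intervals the lowest lower end was -0.70, for TFAP4. On the control arrays the median of the 10 was -2.04, as they were chosen to be low, against -0.16 over all clusters. There all 10 had both prednisolone arrays below both vehicle arrays, which the choice fixed and which held for 26.4% of all clusters. On the arrays labelled BTG1 shRNA both prednisolone arrays were above both vehicle arrays for 3 members, PDGFRB, GNAZ and TRIB1 (18% of all clusters), and below them for 1, TFAP4 (10.5%). The difference between the prednisolone effects was not tested for the members, since one side of it chose them.

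How far a gene could fall further differed between members. Under vehicle, the arrays labelled BTG1 shRNA lay below the control vehicle arrays for all 10 genes (34.3% of all clusters, a count that the choice of genes high on control vehicle arrays favours). Against the control prednisolone arrays, the same vehicle arrays were lower for 5 genes, IL1B, PDGFRB, CD180, PRICKLE1 and TRIB1 (26.4% of all clusters), higher for 4, PLAUR, KANK2, TFAP4 and GLDC (28.1%), and overlapping for GNAZ. They were dim on both arrays for 6 genes, IL1B, PDGFRB, CD180, PRICKLE1, TRIB1 and GLDC. On these arrays 50.77% and 48.13% of all clusters lay at or below the threshold, so a dim gene could still read lower. The unrelated-tissue genes had a lower median, 3.57 and 3.48. IL1B and CD180 lay below that median on both arrays, and PRICKLE1 lay close to it (3.55 and 3.52). PDGFRB (4.06 and 4.09), TRIB1 (4.13 and 3.99) and GLDC (4.81 and 4.98) lay above it, with some room to be lower. TFAP4 and GNAZ stood 2.09 and 2.44, and 1.03 and 1.35, above the threshold on the vehicle arrays so labelled, and PLAUR and KANK2 at most 0.53 above it. The intervals of TFAP4 and GNAZ are thus those of the members furthest above the threshold. On the control arrays 6 genes were dim on both prednisolone arrays, so the sizes of their falls are uncertain and no fold is given for them.

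**Figure D3:**
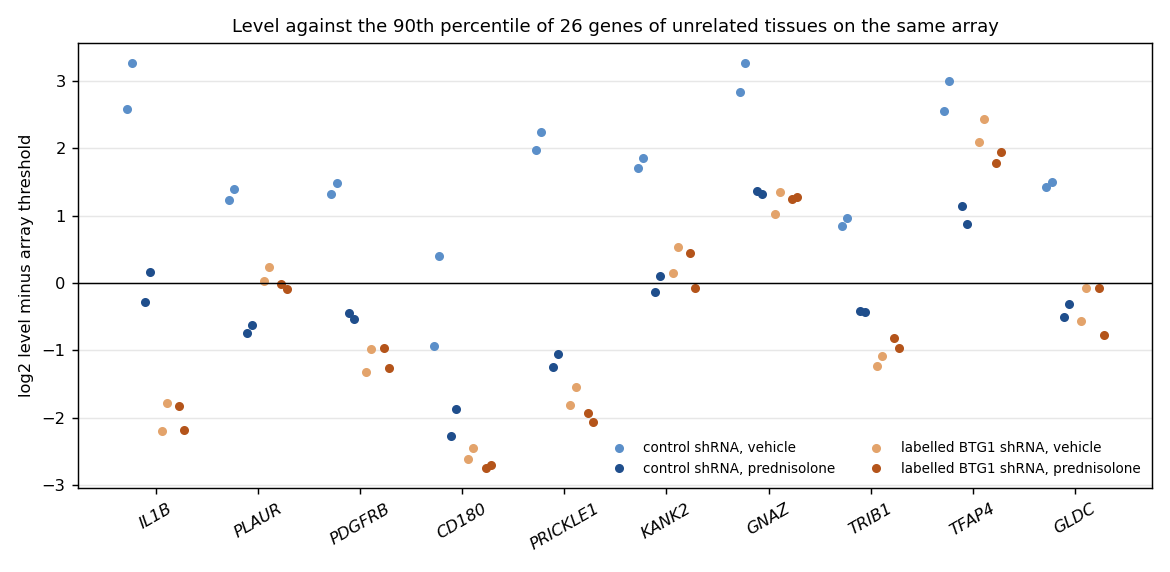
Log2 level of each gene minus the dim threshold of the same array (vertical axis), which is the 90th percentile of 26 genes of unrelated tissues; points are arrays, coloured by group, and 0 is the threshold. TFAP4 and GNAZ stay above 0 on all 8 arrays, while PRICKLE1, PDGFRB, TRIB1 and GLDC are above it only on the control vehicle arrays.

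Markers of other cell types were followed beside these genes, since IL1B, PLAUR and CD180 are also expressed by myeloid cells and PDGFRB by stromal cells. Averaged over 17 myeloid markers, the log2 level was 4.22 to 4.78 on the control vehicle arrays and 4.03 to 4.26 on the control prednisolone arrays, and 11 of the 17 were dim on both arrays of either group. Of these markers 0 passed the test on the control arrays, with a median difference of -0.34. For 14 stromal markers the averages were 4.11 to 4.43 and 3.85 to 4.02, with 10 and 13 dim on both arrays and a median of -0.32. The 34 measured clusters of unrelated-tissue genes had a median of -0.27. The 14 B-lineage markers had a median of -0.33, with 2 lower and 0 higher, and the 15 T-lineage markers a median of -0.30, with 1 lower and 0 higher (0.587% of all clusters were lower). The 3 that fell, named after their values were seen, were the B-cell receptor inhibitor CD22 (-1.59, SE 0.21, limma adjusted p = 0.0142), the adaptor BLNK (-1.53, SE 0.27, adjusted p = 0.0446) and the kinase LCK (-1.20, SE 0.18, adjusted p = 0.0217). Without either control prednisolone array all 3 calls ended, and those of BLNK and LCK each ended in 7 of the 8 fits that left out an array (highest adjusted p 0.315 and 0.206). Leaving out the first control vehicle array, whose values were the most compressed (interquartile range 2.95 against 3.39 to 3.80), changed the all-cluster median from -0.16 to -0.02. Without that array the control differences of the 10 genes ran from -3.46 to -1.45. The part of the marker shifts in the members' differences was not tested.

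The choice took genes mostly, but not only, from the top of a longer list, and it passed over some larger falls. On the control arrays 105 of 17881 clusters were lower at limma adjusted p below 0.05 (0.587%), 91 of them with 1 symbol. Lower clusters numbered 2 with only the control arrays in the fit, which had fewer degrees of freedom. With 1 array left out these falls numbered 4 (second control prednisolone array), 24 (first control prednisolone array) and 289 (second control vehicle array), and 36 to 59 for the others. In the order of those 91 the members rank 1 to 5, 7 to 9, 12 and, for TRIB1, 37. Among the 91, the largest falls outside the members were those of ID3, an inhibitor of DNA binding by E proteins (-2.03, SE 0.20), the antisense transcript ENTPD1-AS1 (-1.97, SE 0.24), the surface proteoglycan CSPG4 (-1.93, SE 0.32), TSKU, a secreted leucine-rich repeat protein (-1.91, SE 0.28), and PRICKLE2 (-1.89, SE 0.19). Their differences were -0.32, -0.27, 0.15, 0.14 and 0.09 on the arrays labelled BTG1 shRNA, with limma adjusted p = 1 for each. Of these 5, ID3 and TSKU lay above the dim threshold on all 4 of those arrays. ID3 read 6.48 and 6.14 with vehicle and 5.97 and 6.01 with prednisolone there, and TSKU read 5.82 and 6.53, then 6.48 and 6.15.

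To see whether relatives of the members moved as well, 12 lists of related genes were followed, with the members left out. Rises and falls counted in these lists are those at limma adjusted p below 0.05. Of 177 such clusters 14 rose (0.928% of all clusters rose) and 3 fell (0.587% of all clusters fell) on the control arrays. On the arrays labelled BTG1 shRNA 0 passed, and 8 of the 177 had an unadjusted limma p below 0.05, beside 1.04% of all clusters. On the control arrays 58 of the 177 had such an unadjusted p, beside 2526 of all 17881 clusters. Of the 14, 11 were in the list of glucocorticoid-induced genes. That list, like the others, was chosen with earlier results of these data known. With only the control arrays in the fit 5 related genes passed, all higher. The calls of PRICKLE2, DAAM1, CSPG4, GNA12, SPRY1 and IER2, described below, ended in that fit. That of CSPG4 also ended after centring, and that of IER2 after quantile normalization. Leaving out 1 array, the total of 17 became 6 (second control prednisolone array left out) or 27 (second control vehicle array left out) at the extremes. For 6 of the 177, all in the glucocorticoid-induced list, limma's test of the difference between the prednisolone effects of the 2 kinds of cells also passed (0.134% of all clusters), but 0 of these 6 calls held in all 8 fits that left out an array.

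The planar cell polarity relatives of PRICKLE1 held 1 fall and 1 rise among 19 genes (median -0.20). PRICKLE2, its closest paralogue, read 5.75 and 6.05 with vehicle and 4.01 ± 0.04 (SD, n = 2) with prednisolone, a fall of -1.89 (SE 0.19, limma adjusted p = 0.00614). DAAM1, a formin that links Dishevelled to the actin skeleton, rose by 2.94 (SE 0.39, adjusted p = 0.0147) to 7.54 ± 0.12 (SD, n = 2), from the dim readings of 4.17 and 5.03. Both calls ended without the second control prednisolone array, and that of DAAM1 also without the first, without the first control vehicle array and after centring.

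Among 17 interleukin-1 and other inflammatory cytokine genes 0 passed at limma adjusted p below 0.05 (median -0.15), and 12 were dim on both control vehicle arrays, so that IL1B was one of the few of its group that was lit. The 10 measured genes of the urokinase system around PLAUR also held 0 such calls (median -0.17, 9 dim on both control vehicle arrays). So did 17 Toll-like receptor genes and partners around CD180 (median -0.18, 6 of the differences positive). Among them TLR10 differed by -1.22 (SE 0.23, adjusted p = 0.0557), TLR6 by 1.16 (SE 0.28, adjusted p = 0.117) and TLR7 by 0.87 (SE 0.20, adjusted p = 0.107). TLR10 and TLR6 were dim on all 8 arrays. LY86, the binding partner of CD180, chosen after its values were seen, differed by 0.47 (SE 0.35, limma adjusted p = 0.491) on the control arrays, where it read 6.58 and 7.32 with vehicle. Of 8 PDGF ligands and related receptors around PDGFRB 1 fell (median -0.33). This was CSPG4, also called NG2, which read 7.84 and 8.16 with vehicle and 6.23 and 5.92 with prednisolone (adjusted p = 0.0347). Its call ended without any 1 of the 4 control arrays (highest adjusted p = 0.304).

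Among 17 G protein alpha subunits and regulators around GNAZ 1 rose (median -0.17). It was GNA12, another alpha subunit, from 6.78 and 7.09 to 8.83 ± 0.23 (SD, n = 2), by 1.89 (SE 0.23, limma adjusted p = 0.0113, or 0.121 without the second control prednisolone array). The 11 Tribbles, COP1 and C/EBP genes around TRIB1 (median 0.04), the 11 relatives and partners of KANK2 (median 0.01), the 9 one-carbon genes around GLDC (median 0.46) and the 15 MYC and E-box factors around TFAP4 (median -0.24) held 0 calls at adjusted p below 0.05 each. Some differences that missed the threshold were large. The largest of each list, in that order, were 1.25 (SE 0.30) for the cluster of MAP2K1 and SNAPC5 and -1.33 (SE 0.25, adjusted p = 0.0557) for PPFIBP1. They were 1.28 (SE 0.54) for PSAT1 and -1.04 (SE 0.26) for MNT. MYC itself, singled out after its values were seen as a known driver of TFAP4, differed by -0.78 (SE 0.19, adjusted p = 0.121). Of 22 genes that report ERK signalling 1 rose and 1 fell (median -0.36). SPRY1, an inhibitor of receptor tyrosine kinase signalling, rose by 2.97 (SE 0.28, adjusted p = 0.00506), and IER2, an immediate early gene, fell by 1.49 on the log2 scale (difference -1.49, SE 0.26, adjusted p = 0.0433). The SPRY1 call ended without the second control prednisolone array, and the IER2 call ended in 7 of the 8 fits that left out an array.

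The contrast to these lists was that of glucocorticoid-induced genes, where 11 of 22 rose and 0 fell on the control arrays (median 1.52). Of the 11, 1 was the BTG1 and LINC01619 cluster. This list was chosen with earlier results of these data known, so its count and p-values cannot be taken as independent of these arrays. SGK1, a serine/threonine kinase, rose by 4.64 (SE 0.23, limma adjusted p = 0.000567) and TSC22D3, which encodes the leucine zipper protein GILZ, by 2.67 (SE 0.17, adjusted p = 0.00118). P2RY14, a receptor for nucleotide sugars, rose by 4.08 (SE 0.25, adjusted p = 0.00118) and the gasdermin GSDME by 3.12 (SE 0.26, adjusted p = 0.00382). The median of the list was 0.16 on the arrays labelled BTG1 shRNA. The largest change of these 4 there was that of TSC22D3, at 0.99 (SE 0.17, unadjusted p = 0.000458, adjusted p = 1).

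**Figure D4:**
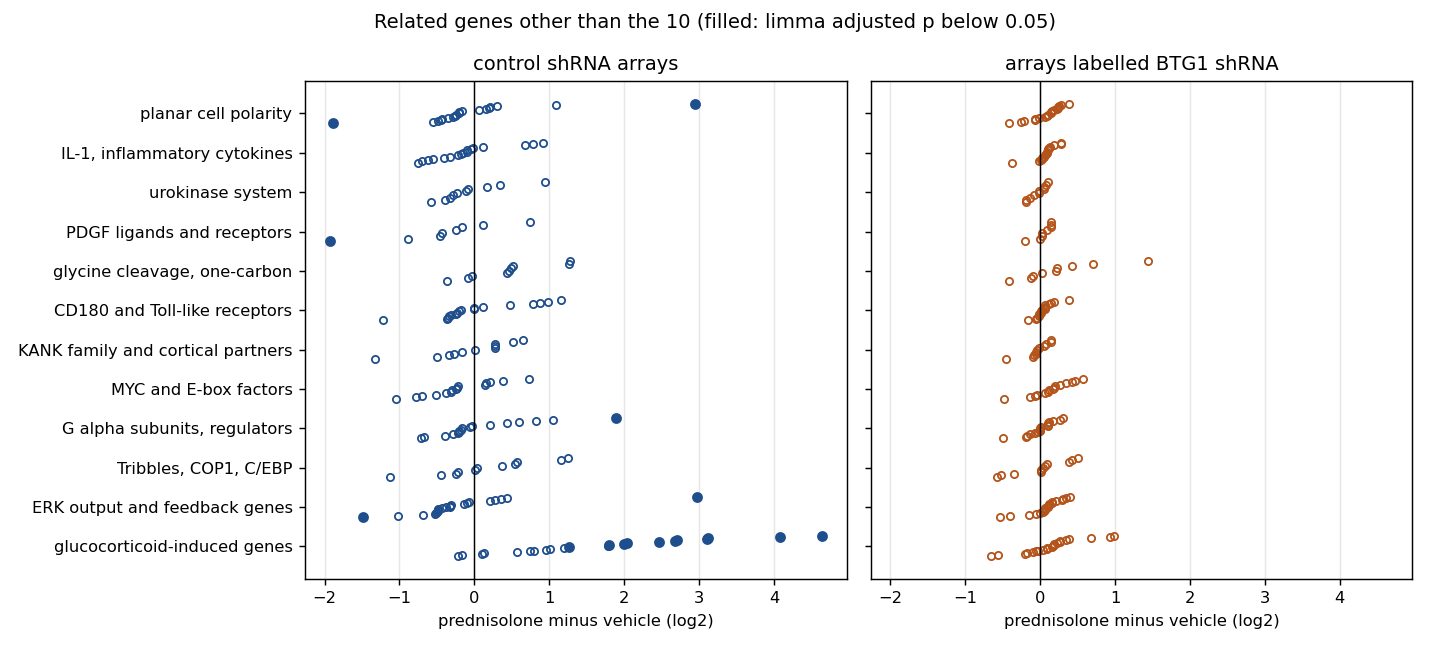
Prednisolone minus vehicle on the log2 scale (horizontal axes) for 177 related clusters in 12 lists (vertical axis), on the control arrays (left) and the arrays labelled BTG1 shRNA (right); each point is a cluster, filled where limma's adjusted p is below 0.05. Filled points occur only on the left, where 11 of the 17 belong to the glucocorticoid-induced genes.

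The 10 genes were alike over the 8 arrays to different degrees. The median Pearson correlation over their 45 pairs was 0.903, the highest 0.988 (PRICKLE1 with PDGFRB, and PDGFRB with TRIB1) and the lowest 0.327 (IL1B with TFAP4). These correlations describe 8 arrays in 4 groups that share the choice of the genes and the lineage split. The level on the vehicle arrays labelled BTG1 shRNA was 0.691 times that on the control vehicle arrays for TFAP4, 0.437 times for PLAUR, 0.364 times for KANK2 and 0.271 times for GNAZ, and no ratio is given for the 6 members that were dim there. Outside the members, the most alike cluster is the highest r among all clusters with 1 symbol, so the search itself favours a high r. For IL1B it was PRICKLE2 (r = 0.995 over 8 arrays) and for CD180 LGR5 (r = 0.996). For TRIB1 it was SSR4P1 (r = 0.995), for PRICKLE1 ATP5MC2 (r = 0.990) and for TFAP4 FCHO1 (r = 0.988), followed by FJX1 (r = 0.986). A high r does not mean a fall of like size. On the control arrays ATP5MC2 averaged 8.35 with vehicle and 7.66 with prednisolone, against 7.35 and 3.88 for PRICKLE1. PDGFRB was most like GABBR2 (r = 0.990) and next CSF1R (r = 0.989), a receptor kinase gene with 0 protein-coding gene starts between it and PDGFRB in RefSeq. CSF1R was dim on all 8 arrays, and its control difference was -0.88 (SE 0.18, limma adjusted p = 0.0776). PLAUR was most like SEPTIN9 (r = 0.989), GLDC like JAML (r = 0.989), GNAZ like FRMPD1 (r = 0.989) and KANK2 like PLD6 (r = 0.982).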

How the data were processed

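Total RNA of 8 samples was labelled with biotin and measured on Human Exon arrays. Probes were summarised over core meta-probe sets of hg18 files, per the labels, and the processing tools are RMA and Partek per the submitters' processing notes, with no version or setting stated there. The deposited scores are log2 expression values from which the decimal point was lost in all but 153 of 143048 values. A point was put back behind digit 1, or behind digit 2 for the 2831 values that start with 1. The restored range was 2.16 to 13.4, and the correlation between arrays rose from 0.446 to 0.587 as deposited to 0.872 to 0.995. The test stayed as designed for log2 values, and 0 columns were left out.

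Symbols came from the platform annotation (14432 clusters with 1, 2408 with several, 1041 with none), and a gene with several clusters took that of the highest mean. limma 3.58.1 in R 4.3.3 was fitted to all 17881 clusters with 4 group means (no filter; degrees of freedom were 4 residual and 3.51 prior), and p-values were adjusted by Benjamini-Hochberg at 0.05. Intervals are 95% from that fit. The fit was checked on data drawn with known answers. The number of arrays limits the precision.

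The members and gene lists were chosen with earlier results of these data known. Related genes were named where they passed in either prednisolone contrast, at most 4 per list, along with the 5 largest other falls and the most alike clusters of each member. Alternatives were quantile normalization, centring, a filter on low levels, a replicate block, an intensity trend, fits on fewer arrays and leaving out each array.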

Additional observations from a re-analysis of the deposited data

Results flagged for a closer look

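PDGFRB, GNAZ and TRIB1 were lower on both control prednisolone arrays than on both vehicle arrays and higher on both prednisolone arrays labelled BTG1 shRNA. On the latter the differences were 0.27 for PDGFRB, 0.31 for GNAZ and 0.50 for TRIB1, each with limma adjusted p = 1. The difference between the 2 effects was not tested for these genes, because the control side chose them.

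For 6 glucocorticoid-induced genes outside the members, limma's test of the difference between the prednisolone effects passed (0.134% of all clusters passed). Their list was chosen with earlier results of these data known, so these p-values cannot be taken as independent of that choice. The effect on the arrays labelled BTG1 shRNA minus that on the control arrays was -4.42 for SGK1 (adjusted p = 0.00862), -3.92 for P2RY14 (adjusted p = 0.0174), -3.76 for SLA (adjusted p = 0.0402), -3.02 for GSDME, -2.56 for TXNIP and -2.08 for NFKBIA (adjusted p = 0.0441 for each of these 3). NFKBIA encodes the NF-kB inhibitor IkB-alpha. It read 8.66 and 8.86 with vehicle and 10.80 ± 0.06 (SD, n = 2) with prednisolone on the control arrays, and 7.18 ± 0.15 and 7.14 ± 0.07 on the arrays labelled BTG1 shRNA. When each array was left out in turn, the calls of NFKBIA, TXNIP and GSDME were lost in all 8 fits (adjusted p = 0.0565 to 0.367), that of SLA in 7 (up to 0.232) and those of SGK1 and P2RY14 in 5 each, among them every fit without an array labelled BTG1 shRNA (up to 0.0823 and 0.155). The arrays labelled BTG1 shRNA differ from the control arrays in lineage markers as well as in BTG1, and these cannot be told apart.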

How the results depend on the processing

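The 0 calls on the arrays labelled BTG1 shRNA, among all clusters, the members and the related genes, were the same under every alternative that was run, and the smallest adjusted p of a member was 0.936. The control differences of the 10 genes stayed negative throughout, and those of CD180 (-2.53 to -1.49) and TFAP4 (-2.27 to -1.69) moved most. The count of clusters called on the control arrays was 271. It was 755 with the replicate block (337 of them lower, against 105), 16 with only the control arrays in the fit (an alternative chosen after seeing the data, with fewer degrees of freedom) and 40 to 770 when 1 array was left out. The extremes came from leaving out the second control prednisolone and the second control vehicle array. The count of related genes was 17, against 27 with the replicate block, 5 with only the control arrays and 6 to 27 when 1 array was left out. Of the 16 clusters called with only the control arrays in the fit, 14 were higher and 2 lower. The 5 related genes called in that fit were all higher. The replicate block rests on shared numbers alone, as the correlation of same-numbered deviations ran from 0.01 to 0.59 between groups. Under the filter on low levels 4 of the 10 genes were tested. No gene had a second cluster, so that alternative could not be run. Apart from fewer arrays in a fit, the cause of these changes was not tested. With 2 arrays a group, and with 6 genes dim on both vehicle arrays labelled BTG1 shRNA, small or dim changes could have been missed.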
